A study of Homo sapiens with 8 samples.

Results

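In HEK293T cells, ZNF676 had 274 binding regions that lay away from promoters and were not found in H1 embryonic stem cells, out of 1306 HEK293T regions in all. These regions were chosen by the peak lists themselves. Peaks of the 3 HEK293T lists that overlapped were joined, and a joined region was kept if 2 or more lists contributed to it. Regions that overlapped an H1 region built the same way were then dropped, as were regions touching a window of 1 kb on either side of a transcript's start (TSS) in GENCODE. The scores, the number of lists, the absence from H1 and the distance to a TSS therefore selected the regions, and their values are given below as descriptions. The DNA sequence was not used by the rule, but sequence values can move with the limits of the rule, as given beside the results below. The regions are called HEK293T-only distal regions here. They are compared with the 564 HEK293T-only regions at promoters and with the 431 HEK293T regions away from promoters that were shared with H1.

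HEK293T is a human embryonic kidney line and H1 is a human embryonic stem cell line (WA01). HEK293T cells carried ZNF676-3HA on the doxycycline-inducible lentiviral vector pTRE-3HA-puro and were selected with puromycin. H1 cells carried ZNF676-3HA on pRRL-IRES-Blast and were selected with blasticidin. Chromatin was precipitated with an antibody against the HA tag in 3 libraries per line, which the methods call biological triplicates, with 1 input library per line as control. All of these samples overexpress a tagged protein, so the regions describe that protein and not the endogenous one. PCR duplicates were removed in H1 only, and the HEK293T lists were longer (1257 to 1711 peaks) than the H1 lists (495 to 637 peaks). Cell line, vector and duplicate removal cannot be told apart in this design, and "HEK293T-only" means that fewer than 2 H1 lists had a peak.

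ZNF676 belongs to the KRAB zinc finger proteins, a large family of DNA-binding repressors. Their arrays of C2H2 zinc fingers read a DNA sequence, and their KRAB domain recruits the corepressor KAP1 (TRIM28), which brings heterochromatin machinery. Many members of the family bind long terminal repeats (LTRs) of endogenous retroviruses. LTR12C is a primate-specific LTR of the ERV9 group, and copies of it act as promoters or enhancers in several human tissues.

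The sequences that carry the main result are shown first. The LTR12C integrant that the study cloned lies at chr6:52651110-52652658 (GRCh37, plus strand, 1549 bp). A stretch of 13 bases at positions 36 to 48 of this element, called the core here, recurred in regions bound in both cell lines. It was picked after the sequences of those shared regions had been examined, so its high share among the shared regions is not an independent result. The 60 bases around it are printed with the core in capitals, followed by 4 HEK293T-only distal regions in LTR12C-like sequence, each the one with the highest mean rank for its form of the core, read 5′ to 3′ on the strand of the core. Changes are named by the base of the core, its position counted from 1 at the core's 5′ end, and the base of the region.

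Cloned LTR12C, chr6:52651135-52651194, plus strand: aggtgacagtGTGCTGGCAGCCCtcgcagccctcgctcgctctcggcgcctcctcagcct
Core unchanged, chr22:23359705-23359749, minus strand: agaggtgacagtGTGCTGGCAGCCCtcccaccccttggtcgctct
Core with G6A, chr5:114334862-114334906, plus strand: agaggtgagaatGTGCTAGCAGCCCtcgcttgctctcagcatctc
Core with G1A, chr6:74700863-74700907, minus strand: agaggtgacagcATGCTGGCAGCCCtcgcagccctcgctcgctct
Core with C12T, chr7:93641687-93641731, minus strand: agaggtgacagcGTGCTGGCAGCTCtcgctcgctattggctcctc

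The 274 regions fell into 3 sequence classes. LTR12C-like regions, those with at least 100 bases aligned by blastn to the cloned element, numbered 104 (38.0%, exact 95% binomial interval 32.2 to 43.99), against 41.3% of all HEK293T regions. A further 44 regions aligned to 10 or more places of the genome at 80% identity or more without being LTR12C-like. The remaining 126 regions aligned to fewer places, and 112 of the 274 matched no place but their own. Multi-copy sequence of either kind thus made up 54.0% of the HEK293T-only distal regions and 48.2% of all HEK293T regions. Its share was 97.4% in shared distal regions and 6.74% in HEK293T-only promoter regions. Repeat annotation was not used here, so LTR12C-like sequence includes related LTRs, and the other repeats are not named.

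LTR12C-like sequence was much less common in the HEK293T-only distal regions than in the distal regions shared with H1. It was more common than in the HEK293T-only promoter regions, of which 8 of 564 (1.42%) were LTR12C-like. The H1 regions that define the shared set were mostly LTR12C-like themselves (468 of 554). Among the peaks at HEK293T-only distal regions, 40.6% in replicate 1, 30.6% in replicate 2 and 40.6% in replicate 3 lay in LTR12C-like regions. Among the peaks at shared distal regions the shares were 94.2%, 94.4% and 96.1%. Every library had the lower share at the HEK293T-only regions, with a mean difference of -57.6 percentage points ± 5.43 (SD, n = 3 libraries), and the exact two-sided sign-flip test gave p = 0.25, the smallest value 3 libraries can reach. Peaks at the same region in several libraries share their sequence. When only the strongest 50% of each list was used, the difference shrank to -24.4 percentage points with the same direction in every library (exact p = 0.25), and the LTR12C-like share of the HEK293T-only distal regions rose to 72.2%. That setting shortens the HEK293T and the H1 lists together, and the cause of the shift was not tested.

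Within LTR12C-like sequence the form of the core differed as well. The unchanged core was found in 31 of the 104 LTR12C-like HEK293T-only distal regions (29.8%, exact 95% interval 21.2 to 39.6) and in 347 of the 406 LTR12C-like shared distal regions (85.5%, exact 95% interval 81.7 to 88.8). Over all classes, 35 of the 274 HEK293T-only distal regions had it (12.8%), against 31.0% of all HEK293T regions. A G6A change alone was carried by 38 HEK293T-only regions (36.5%) and 30 shared regions (7.39%). For G1A alone the numbers were 10 (9.62%) and 2 (0.493%), and for C12T alone 5 and 0. Nearly all of the LTR12C-like HEK293T-only regions, 97 of 104, matched the core with at most 1 mismatch. The 468 LTR12C-like regions of the H1 consensus had the unchanged core in 78.6%.

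In the separate libraries, the unchanged core was present at 29.8%, 37.5% and 29.5% of the LTR12C-like peaks of HEK293T-only distal regions in replicates 1, 2 and 3, and at 85.5%, 85.9% and 86.2% of those of shared regions. The core was picked after sequences of shared regions had been seen, so neither this difference nor that of G6A is independent of that choice. Peaks at the same region also share their sequence across libraries, so the libraries are not independent repeats of it. The mean difference was -53.6 percentage points ± 4.54 (SD, n = 3 libraries; exact two-sided sign-flip p = 0.25, the smallest possible). G6A alone went the other way, at 36.5%, 31.2% and 37.9% against 7.39%, 6.67% and 6.77%, a mean difference of 28.3 percentage points ± 3.36 (SD, n = 3 libraries; exact two-sided sign-flip p = 0.25). With the strongest 50% of each list the difference in unchanged cores was -21.4 percentage points (exact p = 0.25) and 71.6% of LTR12C-like HEK293T-only distal regions had the unchanged core.

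**Figure D1:**
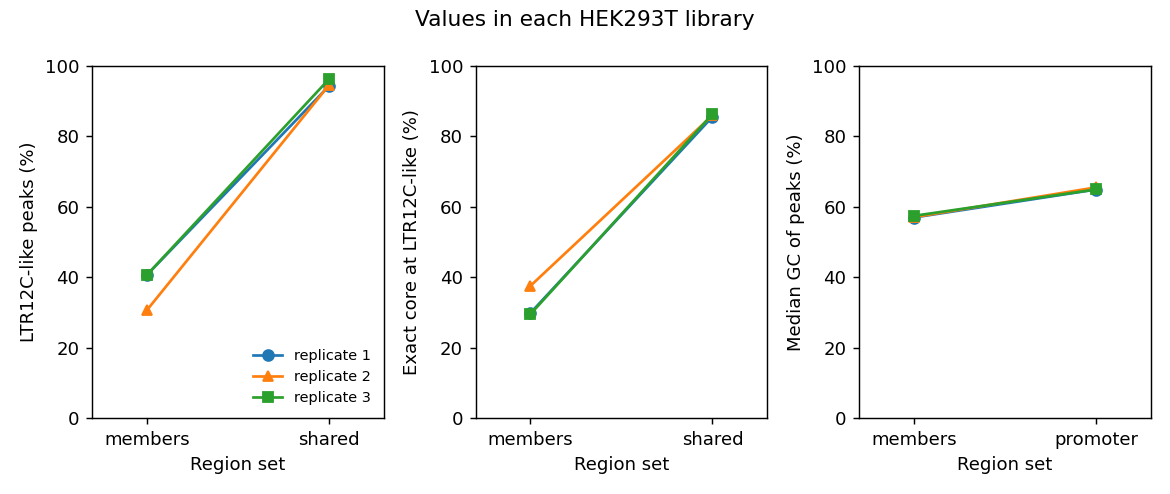
Values of the 3 HEK293T libraries, each drawn as a line between the HEK293T-only distal regions ("members") and the set compared, on axes from 0 to 100%. The share of LTR12C-like peaks and the share of unchanged cores at LTR12C-like peaks were lower in the HEK293T-only regions than in shared distal regions in all 3 libraries, and median GC content was lower than at HEK293T-only promoter regions in all 3.

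Rank moved with the form of the core. Ranks are percentiles of the score within a list, where 100 is the highest score. Among the 510 LTR12C-like distal regions, HEK293T-only and shared, the median of the mean rank was 81.5 for the unchanged core, 45.0 for G6A and 61.6 for G1A. The 31 HEK293T-only regions with the unchanged core had a median of 43.8, against 82.7 for the 347 shared ones, so low rank accompanied absence from H1 also where the core was unchanged. For G6A the medians were 40.6 in HEK293T-only and 51.4 in shared regions. For G1A they were 55.9 and 83.5, the latter from 2 regions. The pooled medians therefore also carry the mix of the sets. Within the HEK293T-only regions alone, the unchanged core did not rank above G1A. At or above the median rank of these 510 regions, 76.1, there were 6 HEK293T-only regions, 4 of them with the unchanged core, and 249 shared regions. Below it, the unchanged core was present in 27 of 98 HEK293T-only regions (27.6%) and 113 of 157 shared regions (72.0%). The difference in the core was thus present among lower-ranked regions taken alone, but the ranks of the sets still differed there (medians of 40.5 and 64.0), and the part of rank in the difference was not tested.

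The genome was then taken as the starting point. Alignment of the first 200 bases of the cloned element found 2690 LTR12C-like loci in GRCh37, of which 534 (19.9%) overlapped a HEK293T region and 101 a HEK293T-only distal region. Of 440 loci with the unchanged core, 390 (88.6%) overlapped a HEK293T region, and 30 of the 375 such loci away from promoters (8.00%) were HEK293T-only. Of 238 loci with G6A, 71 (29.8%) overlapped a region, and 37 of 67 away from promoters (55.2%) were HEK293T-only. Of 203 loci with G1A, 13 (6.40%) overlapped a region, and 9 of 11 away from promoters were HEK293T-only. C12T was rare, with 10 loci, of which 6 overlapped a region and all 5 away from promoters were HEK293T-only. C11T was the most common change, with 750 loci by their best match of the core, and 0 of them overlapped a HEK293T region. Counted by match instead of by locus, 752 C11T cores lay in LTR12C-like loci, and 1 of them lay in a HEK293T-only distal region. Loci with 2 mismatches numbered 646, of which 13 (2.01%) overlapped a region. Reads of low mapping quality were discarded by the authors, which can lower the signal at loci with nearly identical copies, and the part of mapping in these shares was not tested.

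**Figure D2:**
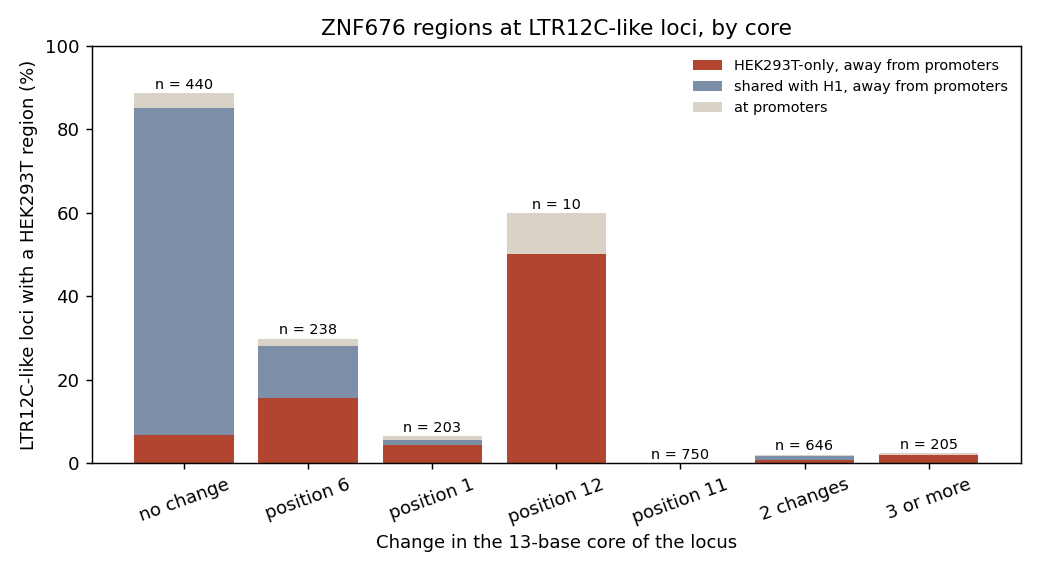
Share of LTR12C-like loci of the genome that overlapped a HEK293T region (y axis, %), by the change in the 13-base core (x axis; positions 6, 1, 12 and 11 stand for G6A, G1A, C12T and C11T), with the number of loci above each bar. HEK293T-only distal regions are a small part of the bar for the unchanged core (30 of 440 loci) and the larger part for G6A (37 of 238 loci). None of the 750 loci with C11T as their best core match overlapped a region.

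The 104 LTR12C-like HEK293T-only regions aligned to the same end of the element as the shared ones. The centre of the region fell at a median of position 69.6 of the element in the HEK293T-only regions and 68.8 in the shared regions. Identity to the cloned element was also similar, with medians of 80.8% and 81.1%. The alignments were shorter, with a median of 212 bases against 284, and the regions themselves were narrower (median widths over all classes of 336 and 488 bp). With at least 200 aligned bases required, 61 of the 274 regions (22.3%) were still LTR12C-like. In introns of genes on a single strand, 24 of 35 LTR12C-like HEK293T-only regions were antisense to their gene (68.6%, exact 95% interval 50.7 to 83.1), and 98 of 180 shared ones (54.4%, exact 95% interval 46.9 to 61.9). These intervals overlap.

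The core also occurred outside LTR12C-like sequence. Of the 126 few-copy HEK293T-only distal regions, those aligning to fewer than 10 places, 4 held the unchanged core (3.17%, exact 95% interval 0.872 to 7.93), 15 (11.9%) matched it with at most 1 mismatch and 30 (23.8%) with at most 2. All 170 HEK293T-only distal regions that were not LTR12C-like, other multi-copy ones included, had 4 (2.35%), 16 (9.41%) and 35 (20.6%). The HEK293T-only promoter regions that were not LTR12C-like, defined in the same way, had 1 of 556 (0.180%), 11 (1.98%) and 41 (7.37%). As a background, 0.00599% of 9528558 windows of 300 bp tiled over the genome held the unchanged core, and 4 of 35116 RefSeq promoters of 300 bp (GRCh38.p14) did. Shared distal regions that were not LTR12C-like, 25 in all, had 6 (24%), 8 (32%) and 9 (36%), higher shares than the 170 HEK293T-only distal ones. Distances of the best match from the centre of the region are given by its mismatches. Among equally good matches the one nearest to the centre was taken. This shortens distances where matches tie, as is more likely with more mismatches, and no expected share within 50 bp was computed. In the 16 non-LTR12C-like HEK293T-only distal regions with at most 1 mismatch the match lay at a median of 17 bp from the centre, and 15 of them had it within 50 bp. With exactly 2 mismatches, 16 of 19 had it within 50 bp. With 3 mismatches 15 of 31 did (48.4%), and with 4 to 9 mismatches 62 of 97 (63.9%). At promoters, 6 of 11 matches with at most 1 mismatch and 11 of 30 with 2 lay within 50 bp.

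Most unchanged cores outside LTR12C-like loci of the genome lay in no HEK293T region. Of 160 such matches, 17 (10.6%) lay in a HEK293T region and 5 in a HEK293T-only distal one. Inside LTR12C-like loci, 388 of 437 (88.8%) lay in a HEK293T region. A set of 9 few-copy HEK293T-only distal regions is printed because it shows the core without the rest of the LTR. They are the highest-ranked with the unchanged core and then with 1 mismatch, core in capitals, GRCh37, read on the strand of the core.

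GOLGA8A intron, chr15:34728026-34728070, minus strand: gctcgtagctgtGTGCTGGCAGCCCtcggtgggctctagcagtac
Intergenic, chr6:140247351-140247395, minus strand: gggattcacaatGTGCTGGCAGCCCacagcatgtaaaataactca
SERPINE2 intron, chr2:224864736-224864780, plus strand: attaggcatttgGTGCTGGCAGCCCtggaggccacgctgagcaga
Intergenic, chr12:84901919-84901963, minus strand: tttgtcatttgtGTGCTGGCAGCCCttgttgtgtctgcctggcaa
TRDN intron, chr6:123598033-123598077, minus strand: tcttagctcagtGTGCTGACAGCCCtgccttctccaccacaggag
GRPEL1 intron, chr4:7067918-7067962, minus strand: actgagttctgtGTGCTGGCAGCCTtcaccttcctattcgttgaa
CCL1 intron, chr17:32688667-32688711, plus strand: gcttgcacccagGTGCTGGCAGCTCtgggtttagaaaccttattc
CAMK1D intron, chr10:12816280-12816324, plus strand: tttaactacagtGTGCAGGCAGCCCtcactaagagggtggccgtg
PHF20 intron, chr20:34361450-34361494, minus strand: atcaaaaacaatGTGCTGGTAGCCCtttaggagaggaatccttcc

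The region in GOLGA8A, a gene for a Golgi coiled-coil protein, lay 1422 bp from its TSS and had ranks of 73.3, 72.5 and 55.4 in HEK293T replicates 1, 2 and 3. GOLGA8A belongs to a family of near-identical genes. The region in SERPINE2, which encodes a serine protease inhibitor, had ranks of 62.1, 40.4 and 47.1. TRDN, which encodes the muscle protein triadin, had a region with G7A at ranks of 74.8, 71.9 and 57.1. The region in CCL1, a chemokine gene, had C12T and ranked 42.6, 65.3 and 41.9. GRPEL1 (mitochondrial protein import) and CAMK1D (a calcium-dependent kinase) had regions in only 2 lists each, with ranks of 63.3 and 45.0 in replicates 1 and 3 for GRPEL1 (C13T) and of 54.2 and 36.9 in replicates 1 and 2 for CAMK1D (T5A). PHF20, which encodes a chromatin reader, had a region with C8T at ranks of 67.1, 29.7 and 32.3. The intergenic regions with the unchanged core ranked 59.5, 53.6 and 44.2 on chromosome 6, and 38.7 and 24.4 in replicates 1 and 2 on chromosome 12. Ranks of these regions were thus spread through the middle of the lists, with the highest value of each in replicate 1 except at CCL1.

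**Figure D3:**
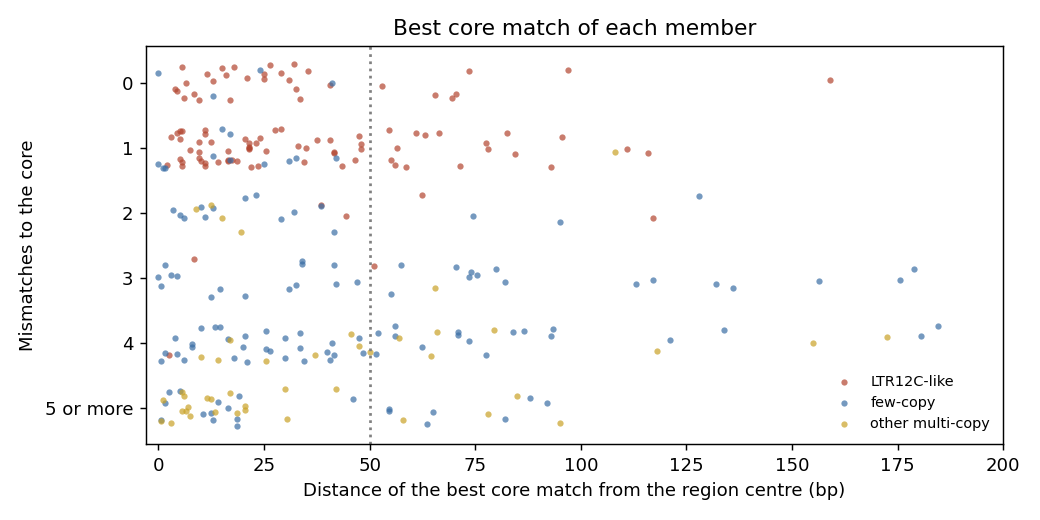
Best match of the core in each of the 274 HEK293T-only distal regions, by its distance from the region's centre in bp (x axis) and its number of mismatches (y axis, points spread vertically within a level), coloured by sequence class. LTR12C-like regions sit mostly at 0 or 1 mismatch (97 of 104), and the few-copy regions with 0 to 2 mismatches lie mostly left of the dotted line at 50 bp.

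By place, 143 of the HEK293T-only distal regions were intergenic (52.2%, exact 95% interval 46.1 to 58.2), 113 were intronic (41.2%, 35.4 to 47.3) and 18 overlapped an exon (6.57%, 3.94 to 10.2). Shared distal regions had 49.7%, 47.8% and 2.55%. The classes were placed differently: 68 of the 104 LTR12C-like regions were intergenic and 1 was exonic, whereas 65 of the 126 few-copy regions were intronic and 15 exonic. The nearest TSS lay at a median of 10566 bp, 18285 bp for LTR12C-like and 5998 bp for few-copy regions, with 79 regions within 5 kb and 19 over 100 kb away. Of the 131 regions in genes, 94 lay in a protein-coding gene and 37 in other genes only. Chromosome 6 held 29 regions (10.6%, against 6.89% of all HEK293T regions), chromosome X 16 (5.84% against 2.99%) and chromosome 20 held 11 (4.01% against 1.68%).

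**Figure D4:**
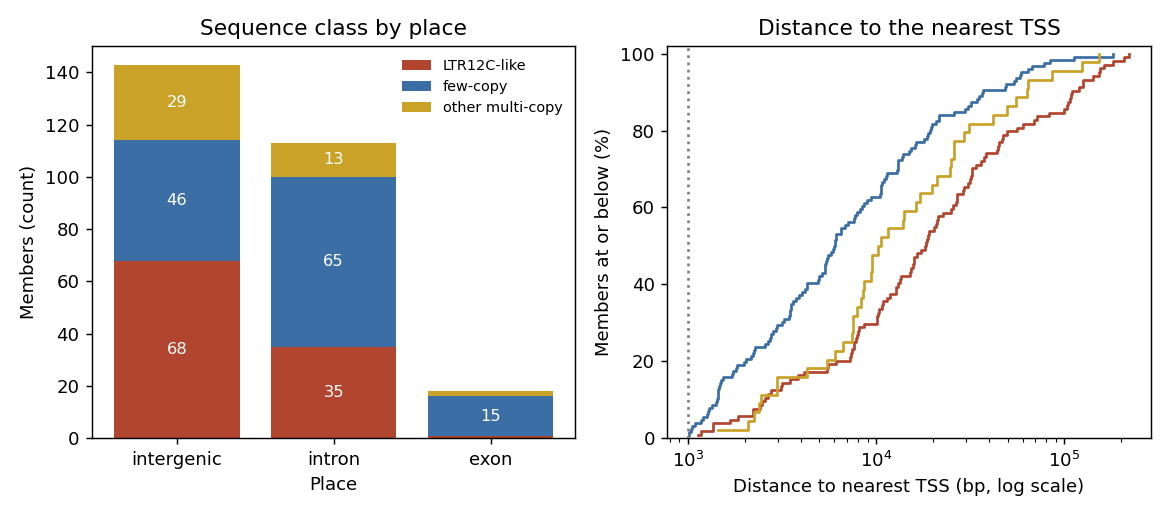
Left, number of HEK293T-only distal regions by place, divided by sequence class; right, cumulative share of each class by distance to the nearest TSS (bp, log scale), with a dotted line at the 1 kb limit of the rule. LTR12C-like regions are mostly intergenic (68 of 104), and few-copy regions lie closer to TSSs (median 5998 bp) than LTR12C-like regions (18285 bp).

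Among regions with a peak in all 3 lists, the highest-ranked came from all classes. At chr5:166211650-166212229, an LTR12C-like intergenic region with G7A in the core, 141146 bp from the TSS of LINC01947, the ranks were 95.2, 90.7 and 91.1 in replicates 1, 2 and 3. An LTR12C-like region at chr22:23359528-23359953, whose unchanged core is printed above, had 91.6, 95.9 and 88.9. A few-copy region at chr22:24191579-24192097, 6793 bp from SLC2A11 (a sugar transporter of the GLUT family), had 90.7, 95.8 and 89.7, without a close match of the core (4 mismatches). The first of these also had a peak in 1 H1 list. These 3 regions ranked above 88 in all libraries. Their scores differed more, at 2252, 1037 and 1281 for the first of them, on a scale the lists do not state.

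Further LTR12C-like regions followed. The region at chrX:116902633-116903423 ranked 90.2, 83.8 and 82.3 with the unchanged core, and that at chr11:39463861-39464306 ranked 88.9, 79.8 and 78.7, also with the unchanged core. Both also had a peak in 1 H1 list. The region at chr15:74265668-74266110, 12731 bp from STOML1, ranked 83.4, 85.0 and 84.2 although its best core match had 3 mismatches.

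In introns, among regions with a peak in all 3 lists, the highest mean rank belonged to a few-copy region in CSMD3, a gene for a large membrane protein, at chr8:114446824-114447313, with ranks of 87.5, 88.1 and 83.6 and 1706 bp from the TSS. A region of alternating A and T in the non-coding gene CFAP418-AS1, without a peak in replicate 1, ranked 96.8 and 81.0 in replicates 2 and 3. SLC47A1, which encodes the MATE1 transporter that excretes organic cations in the kidney, held a few-copy region at chr17:19411211-19411650 with ranks of 80.2, 91.6 and 81.5. The non-coding gene MIR3667HG had one at chr22:50029530-50029978 with 85.0, 85.9 and 75.3. None of these intronic few-copy regions held the core with fewer than 2 mismatches. AGBL4, which encodes an enzyme that removes glutamates from tubulin, had an LTR12C-like region with the unchanged core at chr1:50006647-50007115 and ranks of 89.9, 71.4 and 71.3. Another LTR12C-like region, with G10A, lay in the unnamed gene ENSG00000285961 at chr6:92721763-92722199 and ranked 87.3, 70.0 and 66.9. DAP, a gene linked to programmed cell death, had a region at chr5:10695255-10695617 with 2 mismatches to the core and ranks of 76.2, 70.7 and 71.8. The regions in AGBL4, ENSG00000285961 and DAP each had a peak in 1 H1 list as well.

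Among exonic regions with a peak in all 3 lists, TCF24, which encodes a bHLH transcription factor, had the highest mean rank at chr8:67873361-67873808, with ranks of 80.2, 82.0 and 48.4. KLHL31, which encodes a Kelch-like protein of muscle, followed at chr6:53516561-53517121 with 68.7, 70.0 and 52.3, then the only LTR12C-like exonic region, in the non-coding gene ENSG00000265639 at chr18:68699123-68699690, with 64.9, 63.4 and 55.4, and KCP, a modulator of BMP signalling, at chr7:128523750-128524078 with 58.0, 58.0 and 47.1. Replicate 3 had the lowest rank at each of these 4. The TCF24 region also had a peak in 1 H1 list. The only exon of a zinc finger gene among the regions was in ZNF48 (a UTR exon, chr16:30411188-30411466), with ranks of 5.87, 7.44 and 20.9, near the bottom of the lists.

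Within gene bodies, 7 genes held more than 1 region, counting TNNI3K and its readthrough transcript separately. CENPQ, which encodes a kinetochore subunit, had a pair of LTR12C-like intronic regions with the unchanged core at chr6:49449848-49450239 and chr6:49451469-49451835, with ranks of 66.0, 43.9 and 49.9 for the first and 47.3, 29.7 and 41.9 for the second. STK3, a kinase of the Hippo pathway, had an exonic and an intronic region, the former in replicates 1 and 3 only (42.6 and 27.8) and the latter at 51.6, 36.9 and 23.5. The second CENPQ region and the intronic STK3 region each also had a peak in 1 H1 list. TNNI3K, a cardiac kinase, and its readthrough transcript shared 2 regions, each in 2 lists. LINC00910, a long non-coding RNA gene, had 2 intronic regions, both without a peak in replicate 3. In the unnamed gene ENSG00000282278, 1 of 2 regions also lay in an intron of PDGFRA, a growth factor receptor, with ranks of 38.7 and 29.7 in replicates 1 and 2. The regions in ENSG00000283360 ranked 21.1, 11.1 and 34.2 and 51.9, 59.0 and 46.2.

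Across the libraries, HEK293T-only distal regions had median ranks of 53.9, 43.9 and 39.0 in replicates 1, 2 and 3, a mean of 45.6 ± 7.59 (SD, n = 3). HEK293T-only promoter regions had 44.3, 43.9 and 38.5, and shared distal regions 84.8, 79.2 and 78.9. A peak was present in 256, 209 and 234 of the 274 regions. In all 3 lists there were 151 regions (55.1%, against 70.4% of all HEK293T regions), and the others lacked replicate 3 (40 regions), replicate 2 (65) or replicate 1 (18). Replicate 2 had a peak in only 64 of the 104 LTR12C-like regions, against 104 in replicate 1 and 95 in replicate 3. Without replicate 1, the longest list, 169 regions remained under the rule.

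**Figure D5:**
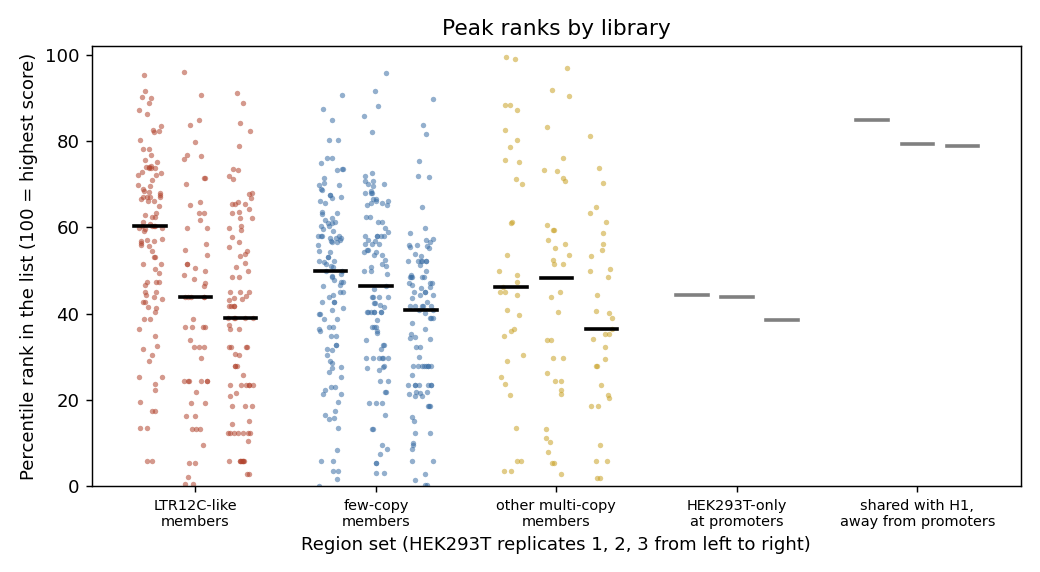
Percentile rank of each peak at HEK293T-only distal regions ("members", coloured points, black lines are medians) in HEK293T replicates 1, 2 and 3, by sequence class, with the medians of the 2 comparison sets as grey lines. Points of all 3 classes span nearly the whole scale, and the class medians, 36.5 to 60.3, lie below those of the shared distal regions (78.9 to 84.8).

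The 44 other multi-copy regions divided into groups by their sequence. A family of 17 regions aligned to one another, with 11 to 242539 places in the genome each and a median of the mean ranks of 25.5. A second family of 8 regions, with 4082 to 5817 places and a GC content of 56.4% to 61.5%, had a median of 29.0, the highest being chr4:73459495-73460005 at 75.04, 83.2 and 63.2. A further 12 regions held runs of alternating A and T of at least 12 bases, and their GC content was 0% to 2.19%. These ranked high, with medians of 87.1, 72.2 and 56.2 in replicates 1, 2 and 3, and included chr7:15229700-15229882 (99.4, 91.9 and 73.7) and chr7:144716607-144717362 (99.0, 90.3 and 70.4). Also in this group were chr4:190051054-190051237 (87.1, 76.0 and 64.8), chr20:21100935-21101138, 5486 bp from KIZ (88.3, 71.4 and 56.2), and chr7:62885493-62885806 (88.2, 73.0 and 40.5). Replicate 3 had the lowest rank at each of these 5. None of the 12 held the core with fewer than 7 mismatches. Such runs were present in 12 of the 274 HEK293T-only distal regions (4.38%, exact interval 2.28 to 7.53). They were present in 9 of the 431 shared distal regions (2.09%, 0.959 to 3.93), and these intervals overlap. The HEK293T-only promoter regions had them in 1 of 564 (0.177%), and all HEK293T regions in 22 of 1306 (1.68%). The remaining 7 regions aligned to 13 to 1458 places.

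GC content of the peaks was lower than at HEK293T-only promoter regions. The medians were 56.9%, 57.0% and 57.4% in replicates 1, 2 and 3 for HEK293T-only distal regions and 64.9%, 65.5% and 64.9% for promoter regions. The difference was -7.96 percentage points ± 0.476 (SD, n = 3 libraries; exact two-sided sign-flip p = 0.25, the smallest possible). The rule itself separated these 2 sets by distance to a TSS, so the contrast is not independent of the rule. Peaks at the same region share sequence across libraries, so the libraries are not independent repeats of this difference. Over whole regions instead of peaks, the median was 56.3% for HEK293T-only distal, 57.4% for shared distal and 64.7% for HEK293T-only promoter regions. GC content below that of promoter regions was thus not particular to the HEK293T-only distal regions. Among these, LTR12C-like regions had a whole-region median of 58.4%, few-copy regions 55.2% and other multi-copy regions 50.9%.

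Motifs of transcription factors differed in how often they occurred. Both strands of the 300 bp around each centre were searched, N standing for any base. The SP/KLF box GGGGCGG was found in 13 of the 274 HEK293T-only distal regions (4.74%), 35.6% of HEK293T-only promoter regions and 30.8% of all RefSeq promoters, and in 1.86% of shared distal and 17.5% of all HEK293T regions. CCAAT, the NF-Y box, was the most frequent, in 21.5% of HEK293T-only distal regions, 25.7% of HEK293T-only promoter regions, 34.6% of RefSeq promoters and 21.3% of all HEK293T regions. CCGGAAG, an ETS site, was found in 2.55%, 12.6% and 10.3% of the first 3 of these sets, and CACGTG, an E-box, in 3.65%, 9.04% and 7.26%. All HEK293T regions had them in 6.13% and 5.51%. TGANTCA, the AP-1 site, was found in 7.66% of HEK293T-only distal regions and 7.71% of RefSeq promoters. The GATA site AGATAA was found in 9.49% and 10.3%. The few-copy class alone had AP-1 letters in 11.1% (exact interval 6.21 to 17.9) and AGATAA in 14.3% (8.69 to 21.6). It had the CTCF core in 8.73% (4.44 to 15.1). RefSeq promoters had 7.71%, 10.3% and 2.41%, and all HEK293T regions 5.44%, 6.74% and 3.45%. The AP-1 and AGATAA intervals included the promoter shares, and the CTCF interval did not. TGTTTAC (FOX) was present in 5.47%, CATTCC (TEAD) in 9.85%, ACTACAA (ZNF143) in 1.82%, the NRF1 core in 1.82% and TGACGTCA (the cyclic AMP response element) in 1.46% of the 274 regions, and in 3.42%, 14.0%, 2.77%, 8.32% and 1.85% of RefSeq promoters. All HEK293T regions had these 5 in 2.30%, 9.57%, 2.99%, 5.97% and 1.07%, so the TEAD share was close to that of all regions. In the few-copy class, the FOX, TEAD and TGACGTCA shares (4.76%, 15.1% and 2.38%) were above those of RefSeq promoters. Their exact intervals included the promoter shares. The SP/KLF, ETS and NRF1 letters were less frequent in that class (9.52%, 3.97% and 3.17%), with exact intervals below the promoter shares. The NF-Y, E-box and ZNF143 shares (29.4%, 4.76% and 1.59%) were also lower, but their exact intervals included the promoter shares. A match of letters describes the sequence only.

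Genes of 5 lists were looked up near the regions. Of 20175 protein-coding genes, 158 (0.783%) had a HEK293T-only distal region in the gene body or within 10 kb of it. Of the 574 zinc finger genes, 4 did (0.697%), namely ZFP37, ZNF213, ZNF48 and ZNF771, a share close to that of all genes. None of the 156 cilium genes, 37 corepressor genes of KRAB zinc finger proteins, 32 pluripotency genes and 47 kidney development genes did.

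The limits that defined the regions were not sharp. Of the 274 regions, 43 had a peak in exactly 1 H1 list (15.7%), against 6.09% of all HEK293T-only regions including promoters, and 30 of these peaks were in H1 replicate 1, 11 in replicate 2 and 2 in replicate 3. LTR12C-like regions were 37 of the 43 (86.0%) and 67 of the other 231 (29.0%). In those 37, the unchanged core was present in 15 (40.5%, exact 95% interval 24.8 to 57.9), and in the 67 without any H1 peak in 16 (23.9%, 14.3 to 35.9), both below the 85.5% of shared regions. At the TSS limit, the nearest HEK293T-only distal regions lay 1018 bp (TCF24), 1019 bp (ENSG00000285115, chr9:115823806-115824065) and 1039 bp (GYPC, chr2:127414804-127415210) from a TSS. The regions just inside the limit lay 971 bp (MAP3K20-AS1), 926 bp (RN7SL88P) and 892 bp (MIR4472-2) from one, all intergenic and next to non-coding genes. The region at RN7SL88P, chr12:96494873-96495101, ranked 97.7, 92.6 and 80.1 and held a run of alternating A and T.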

How the data were processed

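The deposited lists give, for each of the 6 precipitated libraries, the position of every peak and the authors' score, a whole number on a scale the lists do not state, used here only for ranks within a list. Per the labels and the study's methods, the authors mapped reads to hg19 with Bowtie2, discarded reads of mapping quality under 10 and reads in blacklisted or high-input regions, removed duplicates with Picard in H1 only, and called peaks per library with MACS2 against the input of the line. The reads were not analysed here and the depth of each library is unknown.

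Overlap meant at least 1 bp. Regions were annotated with GENCODE v44lift37 on GRCh37 as exon, otherwise intron, otherwise intergenic. Sequences were aligned with BLAST+ 2.17.0: blastn against the LTR12C that the study's primers amplify (at least 100 bases, E at most 1e-10) and megablast against the genome. Loci within 200 bp were joined. The core was matched without gaps on both strands, and of equally good matches the one nearest to the centre of the sequence was kept. The code for region sets was checked against bedtools 2.31.1 on simulated lists, and the core search on planted cores. Libraries were compared with exact two-sided sign-flip permutation tests over 3 HEK293T libraries, so no p could go below 0.25. Intervals are 95% Clopper-Pearson intervals for counting error alone, since regions and peaks are not replicates.

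The regions and the gene and motif lists were chosen with earlier results of these data known, and the core, its changes and the tests on it were added after sequences had been seen. Regions named in the text were the 6 intronic, 6 intergenic and 4 exonic with the highest mean rank among those in all 3 lists, the 6 highest LTR12C-like and 6 highest other multi-copy ones, genes with more than 1 region, regions near genes of the lists, exons of zinc finger genes and the 3 on each side of the 1 kb limit. Regions printed with their sequence were chosen by their core match and rank after these were seen.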

Additional observations from a re-analysis of the deposited data

How the results depend on the processing

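The differences within libraries (LTR12C-like share, unchanged core and GC content) kept their direction in all 43 alternatives computed for them. LTR12C-like and core status belong to the region and not to the library. The SD of both differences was thus 0 when a peak in all 3 HEK293T lists was required. The alternatives also overlap in their regions, so the shared direction is not independent support. The differences ran from -65.9 to -24.4 percentage points for the LTR12C-like share, -56.7 to -21.4 for the unchanged core and -8.49 to -6.08 for GC content. With 3 libraries the exact test cannot give less than 0.25, so it says nothing about stability. No paired analysis was possible because no test compares the 2 cell lines, whose libraries share replicate numbers. The tests within HEK293T were paired by library, since they take each library's difference between sets of regions. The number of HEK293T-only distal regions was 151 with a peak required in all 3 HEK293T lists and 52 with equal list sizes (the strongest 495 peaks of each), and leaving out 1 library at a time gave 169 (without HEK293T replicate 1) to 316. The intergenic share was 63.6% with a 5 kb promoter window, 46.1% with protein-coding TSSs only and 61.5% with equal lists. The intronic share was 33.3% with 5 kb. The exonic share was 3.08%, 18.5% and 1.92% under those 3 settings. The LTR12C-like share was 29.0% when overlap with any H1 list removed a region, 44.1% with 5 kb, 72.2% with the strongest 50% of each list, 55.8% with equal lists and 22.3% with 200 aligned bases, and 32.5% to 44.6% leaving out 1 library at a time, the highest without H1 replicate 1. The multi-copy share was 46.8%, 62.6%, 80.3% and 73.1% under the first 4 of these. The mean of the median ranks was 53.2 with all 3 lists, 71.7 with the strongest 50% and 76.1 with equal lists. The unchanged core was in 71.6% of LTR12C-like HEK293T-only distal regions with the strongest 50% and 48.3% with equal lists, and the core with at most 2 mismatches was in 30.4% of those not LTR12C-like with equal lists. Zinc finger genes with a region numbered 1 in the gene body alone (0.174%, against 0.476% of all protein-coding genes), and 4 genes of the other 4 lists had a region within 50 kb, all of them cilium genes (2.56%, against 1.89%). The cause of these shifts was not tested. The alternatives of the core results and copies over the region centre were chosen after seeing the data.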
